A study of Mus musculus with 20 samples.

Results

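Islet RNA taken from obese mice after 2 days on the diet labelled CRD was compared between mice that had eaten the diet labelled HFD for 39 weeks and mice that had eaten it for 18 weeks. The comparison takes 10 of the 20 arrays of the series, all that the labels place in the 2 CRD groups, with 5 mice in each and 1 array per mouse. All animals were male B6.V-Lep ob/ob mice, which lack functional leptin, overeat and become obese. The other 10 arrays come from mice killed after 18 or 39 weeks of HFD with no CRD, again 5 of each, and serve here as the age comparison without CRD. In the labels 1 number stands for both age and weeks on HFD, so age and length of feeding cannot be told apart, and they do not spell out the abbreviations of the diets. Islets were freed with collagenase and picked by hand from the exocrine tissue. RNA of whole islets mixes several cell types, so fewer cells of a type and less RNA per cell cannot be told apart.

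Pancreatic islets hold insulin-secreting beta cells, glucagon-secreting alpha cells, somatostatin-secreting delta cells and pancreatic polypeptide cells, and are penetrated by capillaries with endothelial cells and pericytes. Islet endocrine cells rest on a vascular basement membrane of laminins, collagen IV and nidogens, which the cells of the vessels lay down and which beta cells bind through integrins. In obese, leptin-deficient mice, long-lasting demand for insulin is known to change beta cells, and the retinaldehyde dehydrogenase gene Aldh1a3 is a known marker of mouse beta cells that have lost part of their mature state. The comparison asks how far the islets of older and younger obese mice differ once both have had the short diet change.

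The arrays carried the label of their tissue: the log2 intensity of Gcg (glucagon) averaged 14.40 ± 0.57 (SD, n = 5) in the 18-week CRD group and 14.32 ± 0.37 in the 39-week CRD group, and Ins2 (insulin) held the highest value of the table, 17.94, on all 10 CRD arrays, so that no difference in Ins2 can be read. The arrays also fell into 3 sets that no label records, called A, B and C here, found from 1315 chemosensory receptor genes. Set A held 4 of the 39-week CRD arrays and 1 of the 18-week CRD arrays, which is replicate 2. Set B held the other 4 of the 18-week CRD arrays, and set C the remaining 39-week CRD array, replicate 3. Age after CRD therefore lay almost along the array sets. Of the 18-week HFD arrays, set A held 4 and set B 1. CRD against HFD levels at 18 weeks therefore also lay largely along the sets, and such comparisons below are given without a block. Over all genes tested, the median absolute log2 difference of 18-week replicate 2 was 0.56 to 0.68 from the other arrays of its own group and 0.14 to 0.39 from the 39-week arrays of set A. For that reason each result is given from the fit of all 20 arrays in 4 groups, then with a block for the array set, and then for set A alone. In set A the 18-week arm is that single array, whose spread is taken from the other groups.

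After CRD, 5 of 18311 genes were lower at 39 than at 18 weeks and 0 were higher, at a Benjamini-Hochberg adjusted p under 0.05 in limma, which is 0.0273% of the genes tested for lower and 0% for higher. The 5 were Aldh1a3, the phosphoinositide phosphatase gene Inpp4b, the laminin chain gene Lama5, the caveola protein gene Ehd2, and Dbt, which encodes the E2 subunit of the branched-chain ketoacid dehydrogenase. At an unadjusted p under 0.05 there were 6510 genes (35.6%), of which 3735 (20.4%) were lower at 39 weeks, and 3686 genes had an adjusted p under 0.11. The groups did not overlap for 836 genes (4.57%). With a block for the array set 0 genes passed, the smallest adjusted p was 0.294, and 305 genes (1.67%) had an unadjusted p under 0.05. In set A alone 0 genes passed, with 90 (0.492%) at an unadjusted p under 0.05. The count depended on which arrays entered the fit. Without 18-week CRD replicate 2, 2872 genes were higher and 3594 lower, and all 5 genes were among those lower. In that fit the 18-week CRD arrays are all of set B and the 39-week CRD arrays of sets A and C. Age after CRD and array set therefore cannot be told apart there. With the 10 CRD arrays fitted alone, replicate 2 included, 1942 genes were higher and 2882 lower. Without 18-week HFD replicate 2, which enters only through the estimate of the spread, 58 genes passed.

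How closely the age contrast followed the array sets can be read from arrays outside the comparison. On the HFD arrays of sets A and B, the difference of set A minus set B was estimated for each gene with age in the fit. Across the 18311 genes this difference had a correlation of 0.913 with the age contrast after CRD, although no array entered both. Genes are not independent replicates, and the value is a description. With the block the correlation was -0.20 and the standard deviation of the age contrast over genes fell from 0.63 to 0.22. Those HFD arrays also enter the estimate of the block, so the lower correlation follows in part from the fit itself. Part of what differs between the 2 ages after CRD therefore cannot be told apart from the array sets, and the 5 genes are given with the values of every array.

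**Figure D1:**
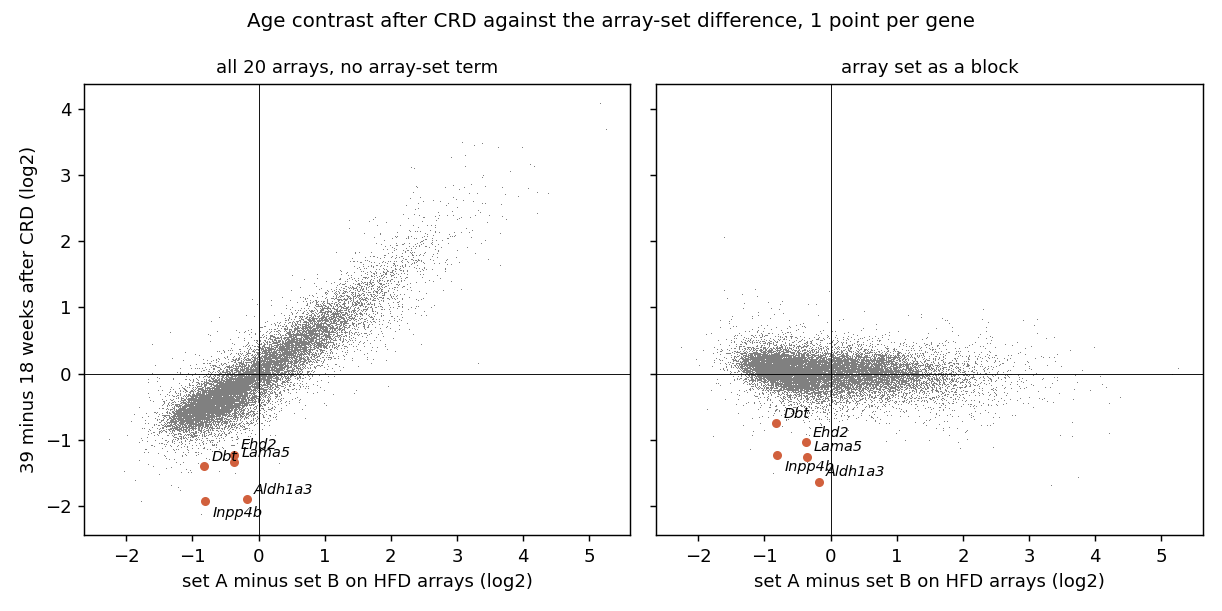
Age contrast after CRD (log2, 39 minus 18 weeks; vertical) against the difference of array set A minus B on HFD arrays (log2; horizontal), 1 point per gene for 18311 genes, without an array-set term on the left and with a block for the array set on the right. The points run along a line on the left (correlation 0.913) and lie in a flat band on the right. The block on the right is estimated partly from the same HFD arrays as the horizontal axis. The 5 genes called are marked by name and lie below 0 in both panels.

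Lama5 had the clearest separation. It encodes the alpha5 chain of laminins, the chain found in the basement membrane of mature blood vessels. Its log2 intensity was 8.40, 8.72, 8.27, 8.38 and 8.55 on the 18-week CRD arrays and 6.96, 7.04, 7.21, 7.22 and 7.18 on the 39-week CRD arrays. The groups did not overlap, and the 18-week array of set A was the highest of all. The log2 fold change of Lama5 was -1.34 ± 0.20 (SE, adjusted p = 0.00787), -1.26 ± 0.25 with the block and -1.62 ± 0.39 in set A alone. On HFD the levels of Lama5 were 6.44 ± 0.52 (SD, n = 5) at 18 weeks and 6.44 ± 0.17 at 39 weeks. Both CRD groups lay above every HFD array, whose highest Lama5 value was 6.88.

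Aldh1a3 had a log2 intensity of 10.12, 8.93, 9.81, 9.24 and 9.80 at 18 weeks after CRD and 7.70, 7.74, 7.38, 7.53 and 8.07 at 39 weeks. The 18-week array of set A, at 8.93, was the lowest of its group and still above all 39-week arrays. The log2 fold change of Aldh1a3 was -1.90 ± 0.25 (SE, adjusted p = 0.00409), -1.64 ± 0.31 with the block (adjusted p = 0.325) and -1.17 ± 0.37 in set A alone. The direction of lower Aldh1a3 at the greater age held in each of these fits, though in set A alone it follows from the lack of overlap. On HFD the gene had 7.79 ± 0.49 (SD, n = 5) at 18 weeks and 7.13 ± 0.32 at 39 weeks, a log2 fold change of -0.65 ± 0.25 (SE) that did not pass (adjusted p = 0.483). The 39-week CRD arrays thus overlapped the 18-week HFD arrays, which ran from 7.18 to 8.34, while the 18-week CRD arrays lay above them. A list of markers of lost maturity and genes normally silent in beta cells had 11 tested genes. Of these, 1 passed (0.0273% of all genes were called lower) and 9 were below 0, where 10985 of all 18311 genes were. The list median was -0.40, -0.06 with the block (6 below 0 and 5 above) and 0.02 in set A alone.

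Ehd2, whose product is an ATPase that holds caveolae at the cell surface and is abundant in endothelial and fat cells, had 7.32, 7.40, 7.30, 7.46 and 7.74 at 18 weeks after CRD. At 39 weeks its log2 intensity was 6.68, 6.06, 6.43, 5.68 and 6.24. The 18-week array of set A, at 7.40, lay in the middle of its own group and not beside the 39-week arrays of set A. The log2 fold change of Ehd2 was -1.23 ± 0.20 (SE, adjusted p = 0.0253), -1.04 ± 0.24 with the block and -1.24 ± 0.38 in set A alone. On HFD Ehd2 was at 6.54 ± 0.33 (SD, n = 5) and 6.39 ± 0.28, which is 0.15 lower at the greater age (adjusted p = 0.883). Leaving out 1 CRD array at a time ended the call of Ehd2 for 7 of the 10 arrays, at adjusted p up to 0.135.

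Inpp4b and Dbt were dimmer and shifted more with the array set. Inpp4b removes a phosphate from a product of phosphoinositide 3-kinase and so acts on signalling from insulin and growth factor receptors. It had 6.03, 4.75, 6.25, 5.69 and 5.82 at 18 weeks after CRD and 4.04, 3.87, 3.92, 3.77 and 3.33 at 39 weeks. Here the 18-week array of set A, at 4.75, lay between the other arrays of its group and the 39-week arrays. The log2 fold change of Inpp4b was -1.92 ± 0.27 (SE, adjusted p = 0.00437), -1.23 ± 0.22 with the block and -1.0 ± 0.31 in set A alone, and the fold changes of its 3 probes were -1.35, -1.64 and -1.92. Inpp4b was also lower at 39 weeks on HFD, 4.90 ± 0.52 (SD, n = 5) against 5.65 ± 0.27, without passing (adjusted p = 0.404).

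Dbt had 5.93, 4.91, 5.90, 5.84 and 5.54 at 18 weeks and 4.28, 4.42, 4.05, 3.83 and 4.54 at 39 weeks after CRD. The log2 fold change of Dbt was -1.40 ± 0.25 (SE, adjusted p = 0.0464) and shrank to -0.75 ± 0.21 with the block and -0.65 ± 0.33 in set A alone. The call was lost when any 1 of 9 of the 10 CRD arrays was left out, and with an offset of 16 added before the log, where the fold change was -0.92 (adjusted p = 0.0739). For low intensities the background is unknown, so the size of the Inpp4b and Dbt differences depends on it: with that offset Inpp4b was at -1.21.

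**Figure D2:**
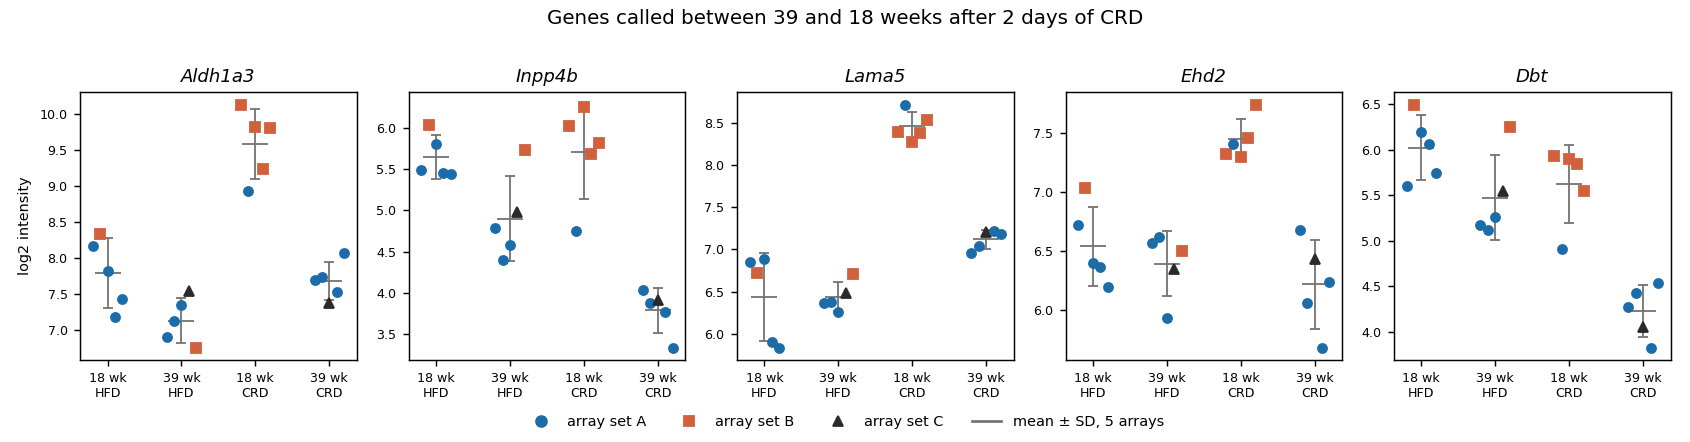
Log2 intensity (vertical) of Aldh1a3, Inpp4b, Lama5, Ehd2 and Dbt on each array in the 4 groups (horizontal), with the marker showing the array set and grey bars the mean ± SD of 5 arrays. In all 5 genes the 18-week CRD arrays lie above the 39-week CRD arrays. The 18-week CRD array of set A is the highest of its group for Lama5, lies among the others for Ehd2, and is the lowest of its group for Aldh1a3, Inpp4b and Dbt.

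The test of whether the age contrast differs after CRD from that on HFD called 0 genes (0%), with a smallest adjusted p of 0.222 and 4043 genes (22.1%) at an unadjusted p under 0.05. With the block 0 passed, with 327 (1.79%) at an unadjusted p under 0.05, and in set A alone 0, with 243 (1.33%). For Lama5 the difference between the 2 age contrasts was -1.35 ± 0.28 (SE), for Aldh1a3 -1.24 ± 0.35, for Ehd2 -1.08 ± 0.29, for Inpp4b -1.17 ± 0.38 and for Dbt -0.85 ± 0.35, each at an adjusted p of 0.222. None of the 5 can be called particular to CRD from these arrays. Leaving out HFD arrays at 18 weeks moved this count: without replicate 2, the only 18-week HFD array of set B, 1129 genes were higher and 2747 lower, and without replicate 1 the counts were 1 and 17.

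Lama5 was not alone among genes of the basement membrane and the interstitial matrix. Of 20 tested genes of a matrix list, 0 passed the test, 17 had a fold change below 0, where 10985 of all 18311 genes had, and 8 were lower on every 39-week CRD array than on every 18-week CRD array, where 3.68% of all genes were (674 of 18311). Their median log2 fold change was -0.69, beside -0.18 for all genes tested. It was -0.39 with the block, beside 0.02, and -0.36 in set A alone, while on HFD it was -0.08. With the block 19 of the 20 were below 0, where 8250 of 18311 genes were. Lama5 itself was not on that list. The list and the markers described here were put together with earlier results of these data in view.

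Among the partners of Lama5 in laminin trimers, Lamb1 (beta1 chain) was at 7.97 ± 0.20 (SD, n = 5) at 18 weeks after CRD and 7.01 ± 0.16 at 39 weeks, and Lamc1 (gamma1 chain) at 7.63 ± 0.12 and 6.97 ± 0.49. Lamb1 ran from 7.78 to 8.27 at 18 weeks and from 6.81 to 7.20 at 39 weeks, so the groups did not overlap, with 7.83 on the 18-week array of set A. The alpha4 chain gene Lama4, of vessel laminins, had a fold change in the other direction, 0.47 ± 0.21 (SE, adjusted p = 0.131), which was -0.09 with the block. Nid2, which encodes nidogen-2, a linker between laminin and collagen IV networks, was at 7.51, 7.0, 7.12, 7.33 and 7.71 at 18 weeks and 5.90, 6.21, 6.32, 6.11 and 6.09 at 39 weeks. Col4a1, the main collagen IV chain, had -0.57 ± 0.16 (SE, adjusted p = 0.1) and -0.58 ± 0.19 with the block, on groups at 10.37 ± 0.20 and 9.80 ± 0.22. None of these passed the test over all genes.

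In the interstitial matrix, Col6a2, a chain of collagen VI, was at 7.61, 7.58, 7.52, 7.58 and 7.55 at 18 weeks after CRD, in which replicate 2 is the second value. At 39 weeks it was at 6.93, 7.39, 6.02, 6.04 and 6.73. The 18-week arrays were nearly equal while the 39-week arrays spread over more than 1 log2 unit, and no value overlapped. Col6a1 was at 7.01 ± 0.12 (SD, n = 5) and 5.92 ± 0.57. The proteoglycan gene Dcn (decorin) had a fold change of -2.14 ± 0.41 (SE, adjusted p = 0.0892), at 6.98, 6.15, 7.87, 6.80 and 7.09 against 4.85, 6.25, 4.20, 4.34 and 4.58. One 39-week array, replicate 2, was above the lowest 18-week array, so Dcn overlapped. Bgn (biglycan) was at 9.44 ± 0.31 (SD, n = 5) against 8.44 ± 0.46, and Col1a2 (a collagen I chain) at 8.77 ± 0.27 against 7.98 ± 0.30. The growth factor-responsive matrix gene Ccn2, which no list counted under that symbol, was at 7.41 ± 0.39 and 5.91 ± 0.49.

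Markers of the cells known to make such matrix had the same direction. Of 11 tested stellate and fibroblast markers, which share Col1a1, Col1a2 and Dcn with the matrix list, 0 passed the test, 10 were below 0, and 5 did not overlap between the CRD groups, all lower at 39 weeks (background 3.68%). The median was -0.95, -0.60 with the block, -0.44 in set A alone and -0.14 on HFD. The summed linear intensity of the 11 genes was 3000 to 4890 in the 18-week CRD group and 2040 to 2760 in the 39-week CRD group, without overlap. On HFD the sums were 3330 to 5420 and 2850 to 4370, which overlap. Pdgfrb, the platelet-derived growth factor receptor of pericytes, was at 6.40, 6.22, 6.53, 6.73 and 6.67 against 5.68, 5.89, 4.99, 5.28 and 5.96, and Cspg4, a pericyte proteoglycan, at 8.00, 7.68, 7.86, 7.86 and 8.04 against 7.19, 7.10, 6.94, 6.78 and 7.33. Vim (vimentin) had 8.45 ± 0.37 (SD, n = 5) and 7.23 ± 0.29, and Acta2 (smooth muscle actin) 10.89 ± 0.40 and 9.94 ± 0.28. Of the defining markers, Pdgfra, Col3a1 and Lum were not among the genes tested. The part of this cell type in the lower matrix genes was not tested.

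Endothelial markers were less uniform in direction. Of 13 tested, 9 were below 0 and 4 above, where 10985 of all 18311 genes were below 0. With the block the counts were also 9 and 4, where 8250 of 18311 genes were below 0. Emcn and Tie1 did not overlap, both lower at 39 weeks (2 of 13, background 3.68%), and the median was -0.37, or -0.12 with the block. Emcn, the sialomucin of capillary endothelium, was at 9.0 ± 0.20 (SD, n = 5) at 18 weeks and 8.23 ± 0.28 at 39 weeks after CRD. The pan-endothelial gene Pecam1 was at 9.80, 10.82, 9.90, 9.84 and 9.80 against 10.77, 10.75, 10.73, 10.42 and 10.85. In Pecam1 the 18-week array of set A lay with the 39-week arrays, and the fold change of 0.67 ± 0.33 (SE) was -0.38 ± 0.22 with the block. The receptor gene Kdr behaved likewise, at 0.74 without and -0.23 with the block.

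**Figure D3:**
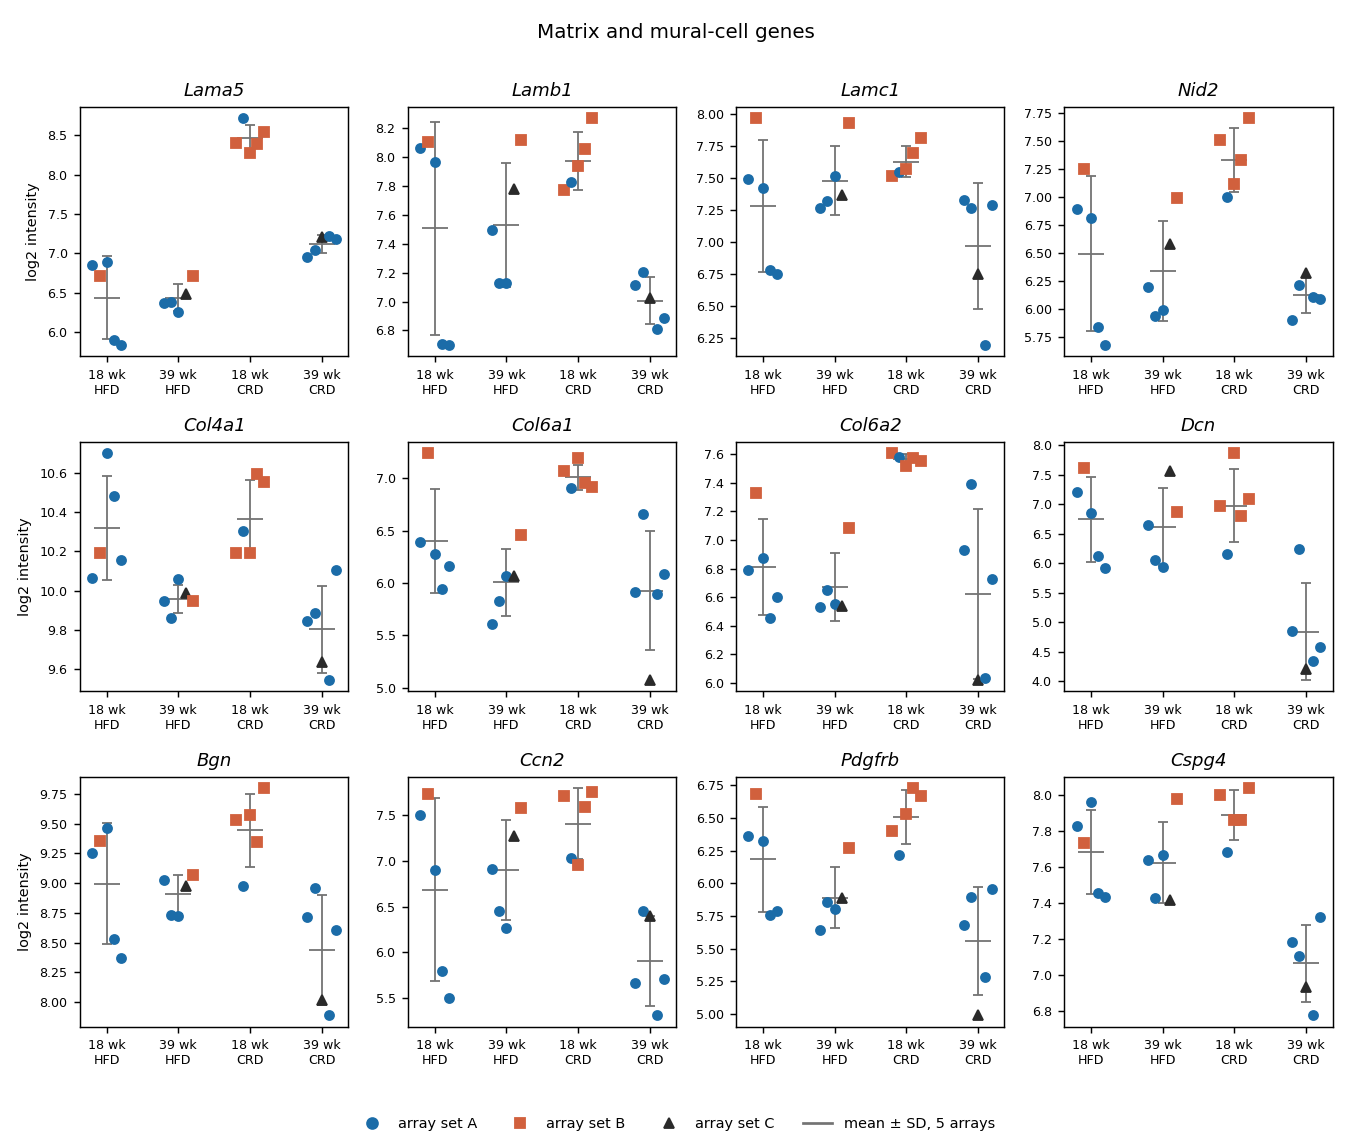
Log2 intensity (vertical) of 12 matrix and pericyte genes on each array in the 4 groups (horizontal), with the marker showing the array set and grey bars the mean ± SD of 5 arrays. In 11 of the 12 genes the 39-week CRD arrays lie below all 18-week CRD arrays, and in Dcn they overlap. Points of the HFD groups are shown for comparison.

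The core clock turns on a transcriptional loop in which BMAL1 (Arntl) and CLOCK drive the Per and Cry genes and the genes for REV-ERB repressors (Nr1d1, Nr1d2) from E-box sequences, and REV-ERB in turn represses Arntl and Nfil3. Of 17 tested clock genes 0 passed the test after CRD, and 5 did not overlap between the ages. Nr1d1 was the only one of these higher at 39 weeks (background 0.885% for higher, 162 genes), and Arntl, Cry1, Per2 and Nfil3 were lower (background 3.68%). The median of the list was -0.29, and 0.12 with the block. The sources used here do not give the time of day at which islets were taken.

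Nr1d1 was at 7.53, 7.84, 7.41, 7.72 and 7.65 at 18 weeks after CRD and 8.26, 8.51, 8.38, 8.27 and 8.51 at 39 weeks. Every 39-week value was above every 18-week value, with 0.42 between the nearest arrays of the groups. Its log2 fold change was 0.76 ± 0.17 (SE, adjusted p = 0.0906), 0.47 ± 0.18 with the block and 0.55 in set A alone. Nr1d2 had no difference of that size without the block, 0.27 ± 0.31 (SE), but was among the genes with the smallest p with it, at 0.97 ± 0.25 and an unadjusted p of 0.000821. Both were far below their HFD levels, where Nr1d1 was at 9.60 ± 0.19 (SD, n = 5) and 9.85 ± 0.33 at 18 and 39 weeks.

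Arntl, Nfil3, Cry1 and Per2 had the opposite order. Arntl was at 7.44, 6.60, 7.05, 7.28 and 7.36 at 18 weeks after CRD and 6.10, 6.33, 5.86, 5.36 and 5.76 at 39 weeks, and Nfil3, a repressor of D-box genes, at 8.88, 8.82, 9.28, 9.23 and 9.29 against 8.22, 8.46, 7.62, 7.90 and 8.34. Cry1, a repressor of BMAL1 and CLOCK, was at 9.77, 9.07, 9.85, 9.08 and 9.64 against 8.58, 8.69, 8.62, 8.68 and 8.35. Per2 was at 6.41 ± 0.27 (SD, n = 5) against 5.42 ± 0.20. The fold changes of Arntl, Nfil3, Cry1 and Per2 were -1.26, -0.99, -0.90 and -0.98. With the block the fold changes of Arntl, Nfil3, Cry1 and Per2 were -0.32, -0.23, -0.42 and -0.26, and in set A alone -0.71, -0.60, -0.50 and -0.68. The difference of array set A minus B on HFD arrays had a median of -0.65 over the clock list. Its part in these differences cannot be told apart from age.

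The promoters of Cry1 and Nfil3 show the 2 kinds of sequence that the loop uses, an E-box read by BMAL1 and CLOCK and the AGGTCA letters that REV-ERB binds. The 250 bases before the annotated start are given 5′ to 3′ in the direction of the gene, from RefSeq on GRCm38.p6, with the match in capitals.
Cry1 (chr10:85185055-85185304, minus strand): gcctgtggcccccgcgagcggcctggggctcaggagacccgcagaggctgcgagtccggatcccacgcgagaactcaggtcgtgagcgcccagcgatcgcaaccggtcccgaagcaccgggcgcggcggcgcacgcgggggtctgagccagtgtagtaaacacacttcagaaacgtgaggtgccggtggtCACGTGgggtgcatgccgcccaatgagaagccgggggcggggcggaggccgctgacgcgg
Nfil3 (chr13:52981040-52981289, minus strand): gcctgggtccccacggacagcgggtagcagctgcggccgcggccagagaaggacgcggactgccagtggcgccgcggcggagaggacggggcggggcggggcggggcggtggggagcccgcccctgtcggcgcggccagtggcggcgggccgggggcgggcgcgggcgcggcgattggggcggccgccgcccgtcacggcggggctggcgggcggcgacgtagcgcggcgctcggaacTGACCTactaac
The CACGTG of Cry1 begins 60 bases before the start. The match of Nfil3 begins 12 bases before it and reads TGACCT, which is AGGTCA on the other strand. Searched on both strands of the same 250 bases, CACGTG occurred in 6.02% and AGGTCA in 14% of all 32851 promoters of the table, so such a match is common. The promoters of Nr1d1 (1 in the table) and Arntl (2) held neither in this window, nor did those of Inpp4b, Lama5 and Ehd2 (1 each). Per2, Aldh1a3 and Dbt had no entry. A match is a description of letters and not of binding.

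**Figure D4:**
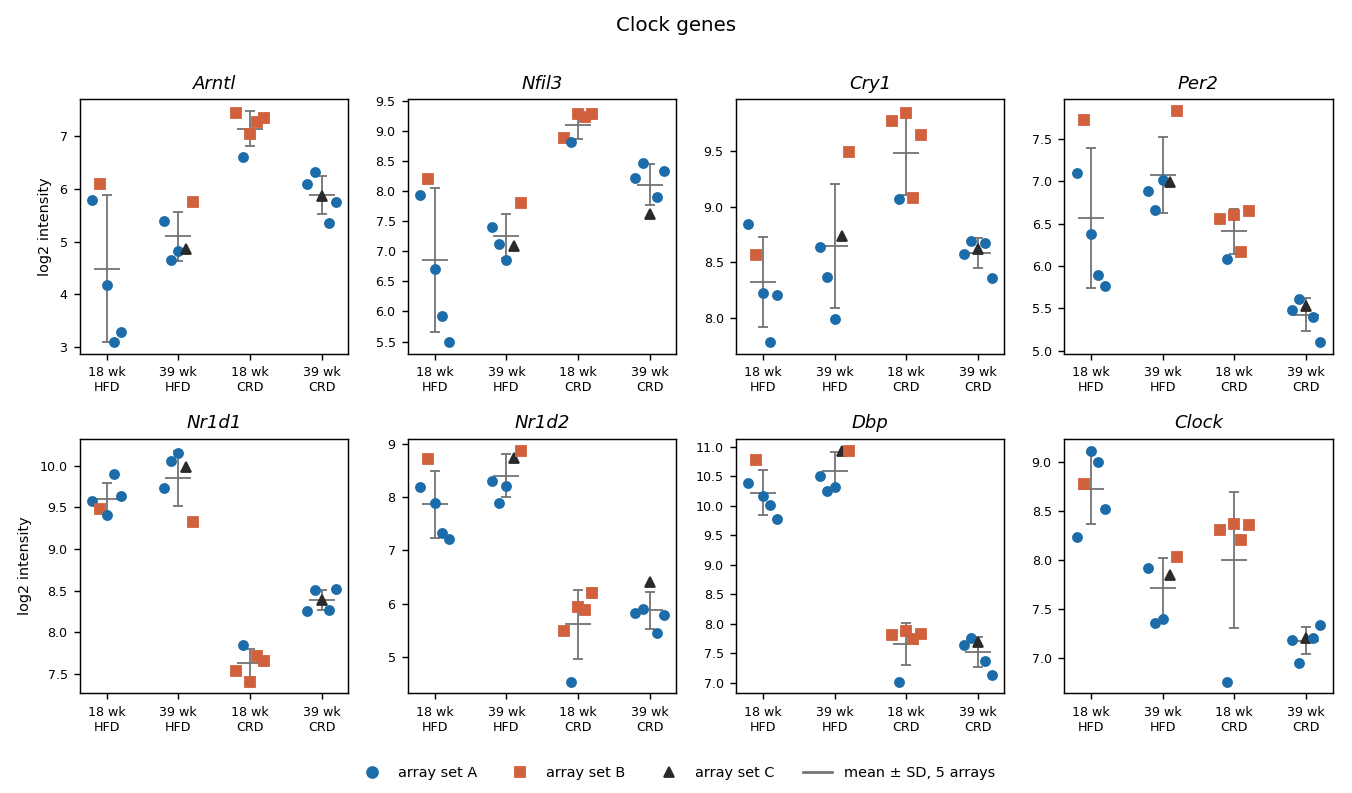
Log2 intensity (vertical) of 8 clock genes on each array in the 4 groups (horizontal), with the marker showing the array set and grey bars the mean ± SD of 5 arrays. After CRD, Nr1d1 is higher on all 39-week arrays, and Arntl, Nfil3, Cry1 and Per2 are lower on all of them, while Nr1d2, Dbp and Clock overlap between the ages.

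Lists of protein folding and stress genes had medians below 0 after CRD in the fit without an array-set term, and medians nearer 0 with it. Of 31 tested genes for chaperones and degradation in the endoplasmic reticulum, 0 passed, 29 were below 0, where 10985 of all 18311 genes were, and 4 did not overlap (Creld2, Sel1l, Derl3 and Herpud1), all lower at 39 weeks (background 3.68%). The median was -0.55, and -0.08 with the block. Sel1l, a scaffold of the ubiquitin ligase that clears misfolded proteins, was at 11.37, 10.82, 11.48, 11.09 and 11.40 against 10.40, 10.52, 10.61, 10.37 and 10.44. Sel1l had a fold change of -0.59 ± 0.22 (SE) with the block, the largest of the 4, where Herpud1 had -0.17. The major chaperone gene Hspa5 (BiP) overlapped, at 14.57, 14.62, 14.99, 14.55 and 14.93 against 14.18, 14.17, 14.70, 13.88 and 13.61.

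Of 18 tested genes of the integrated stress response, which answers amino acid shortage and misfolded proteins through ATF4, 0 passed and 3 did not overlap, all lower at 39 weeks (background 3.68%). These were Trib3, Ddit3 and Mthfd2. Trib3, a pseudokinase gene that ATF4 and CHOP induce, was at 5.84, 5.47, 6.68, 6.22 and 6.40 against 4.82, 4.94, 4.22, 3.98 and 5.14, and Ddit3, which encodes CHOP, at 8.44, 8.40, 8.58, 8.30 and 8.55 against 7.89, 8.06, 7.99, 7.58 and 8.06. For Ddit3 the 18-week array of set A lay within its group, and the fold change was -0.54 ± 0.17 (SE), -0.40 with the block and -0.51 in set A alone. The median of the list was -0.50, and -0.02 with the block.

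Of 14 tested heat shock genes all were below 0, with a median of -0.71, -0.15 with the block and -0.30 in set A alone, and 0 passed. Hspa1a, an inducible HSP70 gene, was at 6.42, 6.39, 6.26, 6.24 and 6.36 at 18 weeks and 4.42, 5.64, 4.7, 3.60 and 4.66 at 39 weeks. The 18-week arrays of both sets were nearly equal, while the 39-week arrays were lower and spread wide. On HFD Hspa1a ran from 3.99 to 6.53 at 18 weeks, so the narrow 18-week CRD values lay inside the range of mice of that age without CRD. The median difference of array set A minus B on HFD arrays was -0.99 over the heat shock list, beside -0.26 for all genes tested.

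Of 22 tested genes of beta-cell identity, 0 passed the test and the median was -0.32, or -0.01 with the block and 0.01 in set A alone. Mafa, an activator of the insulin genes in mature beta cells, was at 12.53 ± 0.19 (SD, n = 5) and 12.67 ± 0.14, and Pdx1, a regulator of beta-cell identity, at 5.61 ± 0.11 and 5.49 ± 0.41. The glucose transporter gene Slc2a2 was at 9.77, 8.47, 8.85, 10.01 and 10.33 against 8.75, 8.67, 10.10, 9.29 and 8.58, a fold change of -0.41 ± 0.48 (SE, adjusted p = 0.507). Mki67, a marker of dividing cells, was at 10.32, 9.17, 9.12, 10.99 and 10.59 against 9.22, 8.62, 10.40, 9.45 and 10.30, and overlapped widely. Its fold change was -0.44 ± 0.38 (SE, adjusted p = 0.360), and of 42 tested cell cycle genes 0 passed and 1 did not overlap, lower at 39 weeks (background 3.68%), with a median of -0.34, or 0.23 with the block. A p that misses the threshold does not show that these levels are equal.

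Txnip, which glucose induces through ChREBP, spread over more than 2 log2 units within each age, at 15.49, 13.48, 15.06, 15.13 and 15.40 against 14.03, 14.44, 15.22, 12.86 and 12.51. Its fold change of -1.10 ± 0.53 (SE, adjusted p = 0.140) was 0.06 with the block. Igf1r, the receptor of insulin-like growth factor 1, was at 11.24 ± 0.25 (SD, n = 5) and 11.65 ± 0.28. Among hormones other than insulin, Ppy (pancreatic polypeptide) was at 13.02, 13.99, 12.85, 13.35 and 13.42 against 14.17, 13.88, 13.45, 13.92 and 14.30, a fold change of 0.62 ± 0.22 (SE, adjusted p = 0.102) that was 0.33 with the block and 0.08 in set A alone. Sst (somatostatin) was at 14.08 ± 0.24 (SD, n = 5) and 13.85 ± 0.58, and overlapped.

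Exocrine transcripts, which acinar cells of the pancreas make, had different values in the 2 age comparisons, while the test of the difference did not pass. On HFD 17 genes passed, 13 higher at 39 weeks (0.071% of genes) and 4 lower (0.0218%), and all 13 were members of the acinar marker list. After CRD 0 of the 22 tested acinar markers passed, with a median of -0.18, or 0.36 with the block. Amy1 (amylase) was at 8.63, 8.16, 11.98, 10.96 and 8.94 at 18 weeks after CRD and 9.12, 9.05, 8.50, 9.48 and 11.24 at 39 weeks, with overlap, while on HFD it was at 10.78, 6.29, 2.6, 2.94 and 3.20 against 11.15, 11.69, 11.59, 11.52 and 12.25. The difference between its 2 age contrasts was -6.74 ± 1.59 (SE, adjusted p = 0.222). The summed intensity of the 22 markers was 9780 to 71100 and 11600 to 64700 in the CRD groups, and 2570 to 59500 and 60000 to 107000 on HFD. The groups did not overlap on HFD for 192 genes (1.05%), and 1209 genes (6.6%) had an unadjusted p under 0.05. With the block 30 genes were higher (0.164%) and 137 lower (0.748%), and 2073 (11.3%) had an unadjusted p under 0.05. In set A alone 0 passed, with 1191 (6.5%) at an unadjusted p under 0.05. The count on HFD was also 0 when any 1 of 7 of the HFD arrays, or 39-week CRD replicate 4, was left out. The sums of the CRD groups overlapped.

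With the block the genes with the smallest p came in another order. Among genes lower at 39 weeks, Inpp4b, Aldh1a3, Lama5 and Ehd2 led, followed by the cytoskeletal gene Tagln3, the calpain gene Capn15, Egf (epidermal growth factor) and Sod3, which encodes extracellular superoxide dismutase. Sod3 was at 9.21, 9.81, 9.06, 9.73 and 9.16 at 18 weeks after CRD and 8.25, 8.10, 8.54, 8.65 and 8.52 at 39 weeks, a fold change of -0.98 ± 0.20 (SE, adjusted p = 0.0892) and -0.95 ± 0.25 with the block. On HFD it was at 6.04 ± 0.38 (SD, n = 5) and 5.95 ± 0.12, below all CRD arrays. Egf was at 8.51, 7.51, 8.29, 8.41 and 8.52 against 6.55, 6.73, 7.26, 6.34 and 6.79.

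Among genes higher at 39 weeks with the block were the glucocorticoid-responsive cochaperone gene Fkbp5 (1.09 ± 0.25, SE), the triglyceride synthesis gene Dgat2 (1.16 ± 0.30), the epithelial cytolinker gene Eppk1 (1.24 ± 0.28), the homeobox gene Irx1 (0.89 ± 0.21), the peptide YY gene Pyy (0.67 ± 0.18) and the ubiquitin protease gene Usp51 (1.12 ± 0.27). All had an adjusted p of 1 in that fit, and without the block Eppk1, Irx1 and Pyy had fold changes of -0.01, 0.02 and -0.03. Fkbp5 was at 8.07, 7.58, 8.24, 8.15 and 8.51 against 8.79, 8.61, 8.80, 8.13 and 9.07. These orders rest on the 18-week array of set A, which had the lowest Eppk1, Fkbp5, Irx1, Nr1d2, Dgat2, Usp51 and Pyy of its group.

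The widest gaps between the groups, picked after the values were seen, were again in genes lower at 39 weeks. After Lama5 (1.06 log2 units between the nearest arrays) and Aldh1a3 (0.86) came the calcium- and calmodulin-dependent kinase gene Camk1d (0.71), Inpp4b (0.71), the mitochondrial malic enzyme gene Me3 (0.69) and Nid2 (0.68). Camk1d was at 7.07, 6.81, 6.89, 6.92 and 6.99 against 5.98, 6.10, 6.01, 5.17 and 6.03, with a fold change of -1.08 ± 0.22 (SE, adjusted p = 0.0906), -0.73 with the block and -0.99 in set A alone. Me3 was at 7.39, 7.20, 7.12, 7.38 and 7.34 against 6.32, 6.34, 6.23, 5.75 and 6.42. The lysine catabolism gene Aass had 8.96 ± 0.28 (SD, n = 5) and 7.87 ± 0.18, and was lower at 39 weeks on HFD as well, at 7.20 ± 0.50 and 6.25 ± 0.37. The mitochondrial import gene Timm21 was at 6.05 ± 0.34 and 4.76 ± 0.30, the adhesion gene Clmp at 7.35 ± 0.76 and 5.41 ± 0.27, and the chemokine receptor gene Ackr3 at 5.95 ± 0.47 and 4.33 ± 0.37. Of the 674 genes lower without overlap, 619 were below 0 with the block, and of the 162 higher without overlap, 135 were above 0. Over all 18311 genes, 8250 were below 0 and 10061 above 0 with the block. Genes without overlap have the same order within set A by their selection. The selection thus favours these signs, and the counts are a description only.

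For many other lists the median age contrast was near 0 once the array set was in the fit. The proteasome list had all 27 tested genes below 0 and a median of -0.49, and a median of 0.04 with the block. The 26 mitochondrial ribosome genes went from -0.52 to a median under 0.01 in size, the 39 genes of oxidative phosphorylation from -0.38 to 0.10, the 24 lysosome genes from -0.47 to -0.03 and the 24 cilium genes from -0.44 to 0.05. On the HFD arrays these lists differed between sets A and B by medians of -0.67 to -0.78. In the lists for matrix and for stellate cells and fibroblasts that difference was -0.38 and -0.41, beside age contrasts of -0.69 and -0.95, and its part in them was not tested. Erythroid markers were the list with the highest median at 39 weeks (0.47, 0.73 with the block, 4 genes), and their median on HFD was 1.04. Macrophage markers had a median of -0.40, or 0.02 with the block.

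**Figure D5:**
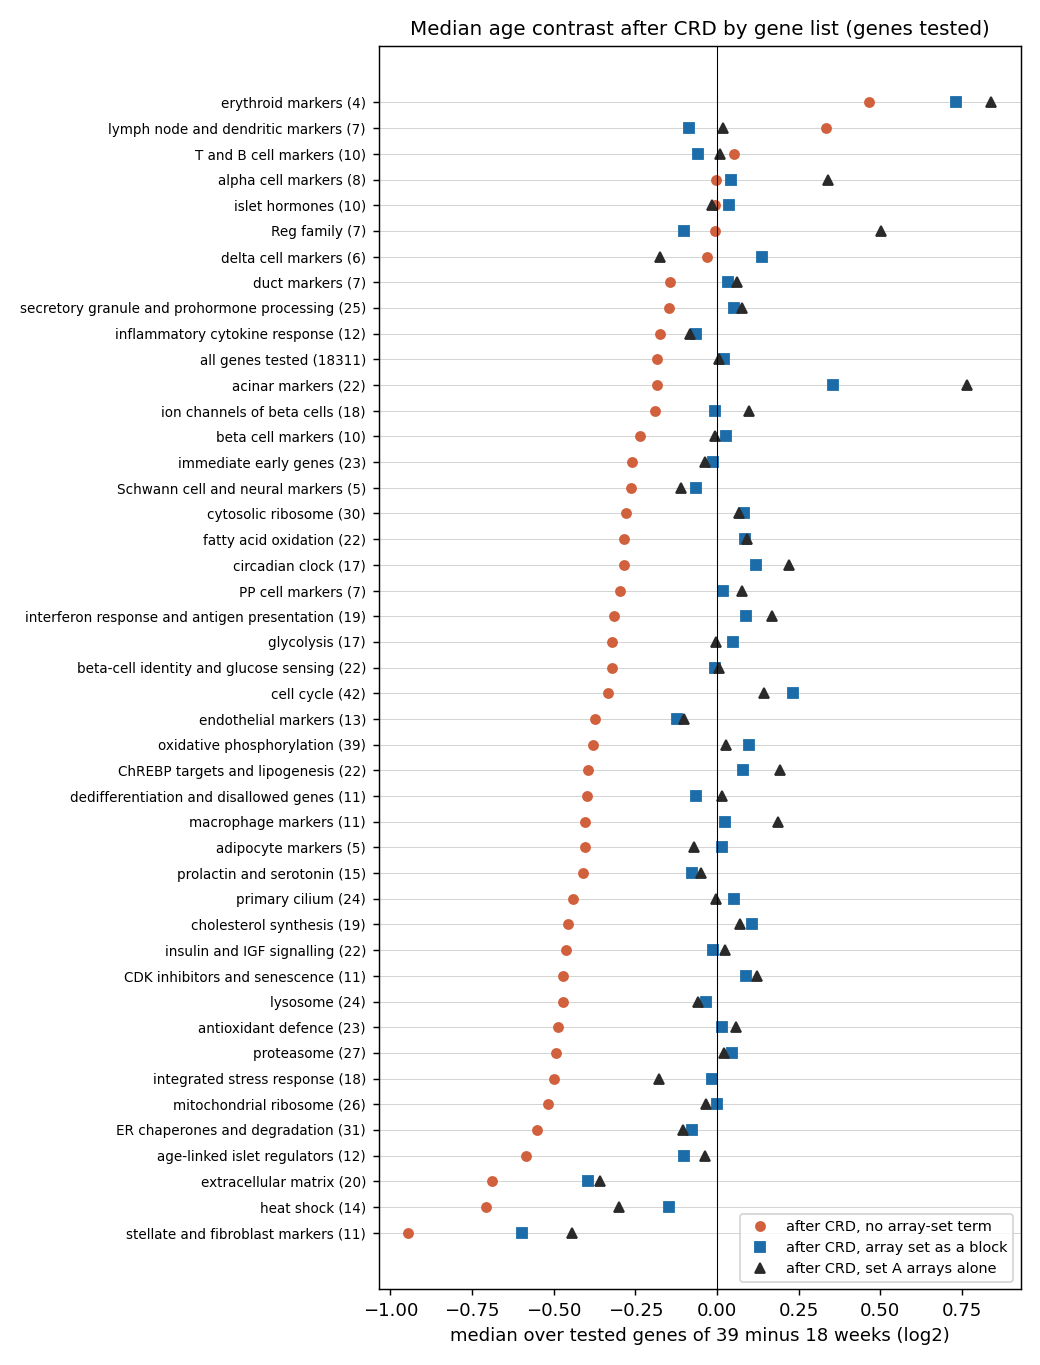
Median log2 age contrast after CRD (horizontal) for each gene list and for all genes tested (vertical, with the number of genes tested), without an array-set term (circles), with the block (squares) and for set A alone (triangles). Many lists lie near 0 with the block. The stellate and fibroblast markers (-0.95, -0.60 and -0.44) and the matrix list (-0.69, -0.39 and -0.36) have the lowest medians in the fits with the block and for set A alone, and other lists, such as heat shock (-0.71, -0.15 and -0.30), are also below 0 in all 3 fits.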

How the data were processed

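Islet RNA of 20 male ob/ob mice in 4 groups of 5 was labelled with Cy3 and measured on 1-colour Agilent arrays. Per the labels' protocols, the primer was oligo-dT alone or mixed with random primer, and no source used here says which for each array. Per the submitters' processing notes, Feature Extraction 11 read the images. The deposited table holds 1 linear intensity per probe for 59448 probes. All 20 deposited intensity columns had identical sorted values, so the authors' values were quantile normalized before deposit. No source used here gives their background correction, and the number of arrays limits the precision.

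Intensities were used as log2. Of the probes, 30010 carried 1 gene symbol in the platform annotation and 29438 carried none. RefSeq held every gene identifier. The probe with the highest mean stood for a gene, and the lowest 30% of 26159 genes were left out (mean log2 under 4.83), which left 18311. The 20 arrays were fitted in 4 groups with limma 3.58.1 (lmFit and eBayes, R 4.3.3), p-values were adjusted over 18311 genes by Benjamini-Hochberg, and the threshold was 0.05. Fold changes are on the log2 scale with standard errors (SE). The fit was tested on simulated data drawn independently for each array, without array sets, so that test does not cover them. p-values measure the spread between single arrays of a group, 1 per mouse. In the fit without an array-set term that spread also holds the difference between array sets.

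Array sets came from average-linkage clustering on 1315 chemosensory receptor genes. Alternatives changed the arrays fitted, the block, the offset, the filter and the probe rule, and left out each array.

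Genes were named by rule. They are the largest called changes without overlap (up to 12 in each direction), the 8 of smallest p in each direction in the block fit, up to 4 called or 2 leading members of each list, and 13 fixed islet genes, of which Cdkn2a and Ezh2 were not among the genes tested. Other list members and the genes of widest gap were picked after their values were seen. The groups compared, the lists and the rule were chosen with earlier results of these data known.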

Additional observations from a re-analysis of the deposited data

Results flagged for a closer look

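Among 123 named genes, 1 array of a CRD group stood far from the other 4 by Dixon's criterion in 36 of 246 gene-by-group sets. The criterion flags about 1 in 20 sets of independent values by chance. These genes were named partly by rank and share the array sets, so that rate is no baseline here. Of the 36 flags, 23 were on 18-week CRD replicate 2, the only 18-week CRD array of set A. Its log2 intensity was low in Ano1 (5.58), Egf (7.51), Etfa (8.31), Glra1 (4.88), Gpx8 (4.65), Ift20 (11.05), Ift27 (9.85), Itgam (5.35), Ndufa4 (9.26), Psmc6 (9.75), Psmd2 (10.57), Rpl13 (12.27), Ttr (13.98) and Txnip (13.48). It was high in Cd8a (11.76), Cidec (6.48), Gast (11.25), Madcam1 (7.57), Mcm3 (15.35), Pcsk6 (10.75), Psmb8 (11.86), Slc7a2 (10.53) and Tagln3 (7.24).

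At 39 weeks, replicate 3, the set C array, stood apart in Gast (10.19), Reg3a (7.29), Rnase1 (10.34), Slc30a8 (9.45) and Tagln3 (6.06), and replicate 4 in Camk1d (5.17), Hhex (4.26), Me3 (5.75), Mrpl10 (8.74), Slc7a2 (9.24) and Tcim (5.43). At 18 weeks, replicate 3 stood apart in Alas2 (9.14) and replicate 5 in Tent5d (6.18).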

How the results depend on the processing

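For age after CRD, the count of 5 genes became 0 with the array set as a fixed block, as a random block (within-set correlation 0.578) and in set A alone. It became 2 with the replicate number as a replicate block, 160 with no filter on dim genes, 3 with the lowest 50% left out and 4824 on the CRD arrays alone. Inpp4b and Dbt were among the lowest 50%, so they were not tested in that setting. Leaving out 1 array gave 3 to 6466 genes, the highest without 18-week CRD replicate 2, and 58 without 18-week HFD replicate 2. Without that CRD array, age after CRD and array set cannot be told apart. The count was 3 without any 1 of 6 other CRD arrays, and within 1.5 times the main count in the other settings. Same-numbered CRD arrays had correlations of -0.24 to 0.28 between their deviations from the group means. These deviations also hold the array-set difference, so whether the numbers pair the mice cannot be read from them. For age on HFD, the count of 17 became 167 with the set as a fixed block, 265 with a random block, 0 in set A alone, 0 with the replicate block, 0 with no filter and 0 on the HFD arrays alone, and 0 to 283 when 1 array was left out, the highest without 18-week HFD replicate 1. For the difference between the age contrasts, 0 genes became 18 without 18-week HFD replicate 1 and 3876 without replicate 2, and it stayed at 0 under the other settings, the replicate block included. The cause was not tested. Aldh1a3 and Inpp4b passed in all 20 fits that left out 1 array, as did Lama5, while Ehd2 passed in 13 and Dbt in 5. All 5 kept their direction in every setting that tested them, and none passed with the array set as a fixed or a random block. Much of that was fixed in advance. Leaving out an HFD array cannot change these fold changes. As the 2 CRD groups do not overlap in these genes, neither leaving out a CRD array nor fitting set A alone can reverse them. Of the 123 named genes, 23 changed sign with the fixed block, none of them called in that fit, and 29 in set A alone. The same count was 1 on the CRD arrays alone, a fit that leaves every fold change as it was. The 23 and 29 can thus include a gene with a fold change of 0, such as Ins2. The unknown background limits fold changes of dim genes.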
